A study of Gasterosteus aculeatus with 60 samples.

Results

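Calcium-signalling genes of the threespined stickleback, NFATC3 (ENSGACG00000016365) and CAMKK1 (1 of 2) (ENSGACG00000011259), were followed through the diencephalon and telencephalon of males that had or had not met a rival. They were taken by identifier and are 2 of the 17536 genes in the count table. Both are in the study's own tables of challenge genes, which come from these same fish. Low p values of their challenge effects are therefore not independent evidence. The fish were 30 adult males of a freshwater population, caught in the wild, kept alone in laboratory tanks and holding a territory when they were tested. A challenged male was shown a smaller, unrelated male confined in a flask, a control male an empty flask. The flask was removed after 5 min. Brains were taken 30, 60 or 120 min after the flask went in, from 5 challenged and 5 control males at each time. Both regions came from the same fish, which gives 12 groups of 5 fish and 60 libraries of poly-A RNA made with a directional kit. All fish were of the same wild population, and every control had also met a flask, so challenged and control males differed by the male inside it.

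Both genes encode proteins that read the calcium level of a cell. NFATC3 is a transcription factor that is kept in the cytoplasm by phosphorylation. Calcium entering the cell activates the phosphatase calcineurin, which removes those phosphates and lets NFATC3 move into the nucleus. CAMKK1 is a protein kinase that binds calcium-loaded calmodulin and switches on other kinases, CaMKI and CaMKIV, of which CaMKIV phosphorylates the transcription factor CREB. These roles were worked out mainly in mammals, where both pathways link the electrical activity of neurons to transcription. The abundance of the mRNA, which is what was measured here, does not show where the protein was or whether it was active.

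In the stickleback annotation NFATC3 lay on linkage group II from 14997944 to 15034759 on the minus strand, a gene of 36816 bp including introns. CAMKK1 (1 of 2) lay on linkage group I from 12361944 to 12367073, also on the minus strand, over 5130 bp. The words "1 of 2" in its name say that the annotation holds another gene with the same human counterpart. Reads that fell in more than one gene had been left out of the counts, and how reads shared between the copies were placed was not tested. CAMKK1 (1 of 2) is called CAMKK1 in what follows.

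Library totals ran from 17705327 to 55299804 assigned reads with a median of 30159568. Levels are given in cpm, the reads of a gene relative to all reads counted in its library, after scaling between libraries by the trimmed mean of M-values (TMM). The region labels were checked against marker genes fixed as a list. The telencephalic genes emx1, emx3, tbr1b, eomesa and neurod6b were each higher in the telencephalon in 30 of 30 fish, and the hypothalamic genes nkx2.4a and rx3 were each higher in the diencephalon in 30 of 30. OTP was higher there in 29, otpa in 28, sim1b in 27 and the neuropeptide genes oxt and avp each in 26 of 30. Against their labels, emx2 and nkx2.1 were higher in the other region in every fish. The summed cpm of the 6 telencephalic genes was higher in the telencephalon of all 30 fish, but that of the 8 diencephalic genes was higher in the diencephalon of only 26. This diencephalic sum was mostly oxt and avp, whose medians in diencephalon were 269 and 193 cpm. Each other gene of the list had a median there of 15.1 cpm or less. In fish 9 (120 min challenged) this diencephalic sum was 51.7 in diencephalon and 767 in telencephalon, in fish 12 (30 min control) 192 and 1004, in fish 13 (120 min challenged) 384 and 439, and in fish 38 (30 min challenged) 224 and 1217, against medians of 513 and 30.9. The telencephalon libraries of these 4 fish had the highest diencephalic sums of that region. In these 4 fish too, nkx2.4a and rx3 were higher in the diencephalon. Some libraries stood apart in genes of other cell types. The summed cpm of 18 photoreceptor genes had a median of 17.2 in diencephalon but was 2426 in fish 35 (60 min control) and 1324 in fish 19 (120 min challenged). In telencephalon its median was 10.5, against 1122 in fish 35. The summed cpm of 10 microglia and leukocyte genes had a median of 203 in diencephalon and was 2190 in fish 8 (60 min control) and 1504 in fish 9 (120 min challenged). In telencephalon the median was 258, with 1583 in fish 9 and 1065 in fish 8. Pituitary genes were highest in the diencephalon of fish 12, at 6589 cpm in sum against a median of 5.01.

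NFATC3 was detected in every library, and it was a gene of the diencephalon more than of the telencephalon. Its level in the 30 diencephalon libraries ran from 6.18 to 24.8 cpm with a median of 9.68 (137 to 821 counts per library). In the 30 telencephalon libraries it ran from 2.20 to 7.52 cpm with a median of 3.42 (50 to 234 counts). The ranges overlapped through the telencephalon of fish 9, but within a fish they never crossed, since NFATC3 was higher in the diencephalon in 30 of 30 males. The difference on the log2 scale was 1.57 (SE 0.11), a 2.97-fold higher level in diencephalon (edgeR quasi-likelihood test over the 12 groups, adjusted p = 3.68e-18). Between fish the log2 difference ran from 0.93 to 2.74 (mean 1.54, SD 0.40, n = 30). A paired permutation test gave p = 1e-05, the smallest that 100000 resamples can give.

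CAMKK1 had the same regional order. Its level in diencephalon ran from 1.07 to 10.7 cpm with a median of 2.19 (26 to 234 counts), and in telencephalon from 0.0493 to 5.41 cpm with a median of 0.542 (1 to 160 counts). It too was higher in the diencephalon of 30 of 30 fish, by 1.96 on the log2 scale (SE 0.22), a 3.90-fold difference (edgeR, adjusted p = 2.94e-11). The log2 difference within a fish ran from 0.95 to 4.60 (mean 1.97, SD 0.77, n = 30), and the paired permutation p was again 1e-05, the smallest possible. The difference was 1.97 without fish 19 and 35 and 2.21 without fish 9, 12, 13 and 38, where that of NFATC3 was 1.60. In control males alone it was 1.62, and for NFATC3 1.73. Of all 17536 genes, 35.1% were called higher in diencephalon at an adjusted p under 0.1, so this direction was common in these tissues. A dissected region is a mixture of cells, and fewer cells of a type cannot be told apart from less RNA per cell.

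**Figure D1:**
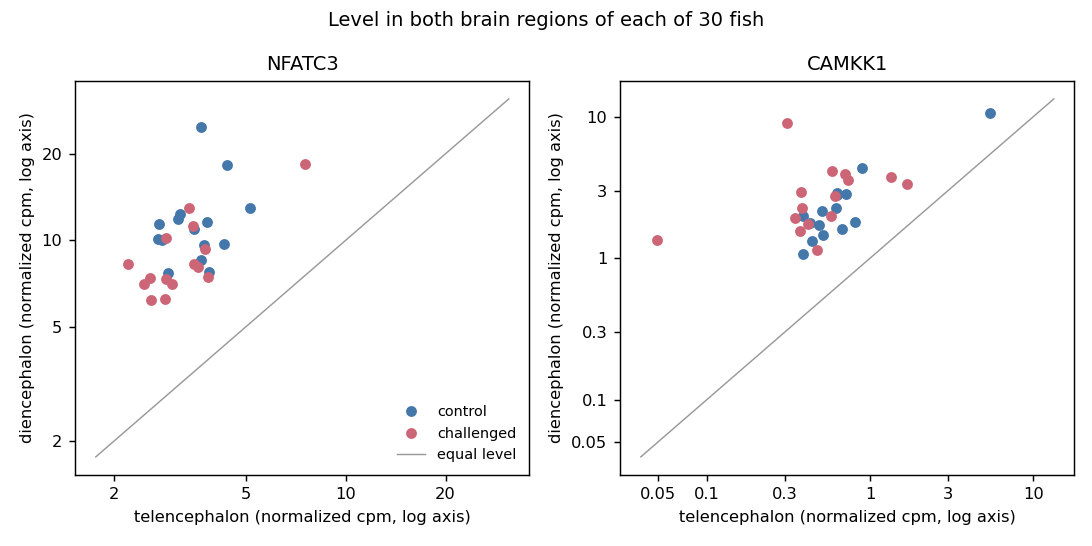
Level of NFATC3 and of CAMKK1 in diencephalon (vertical axis) against telencephalon (horizontal axis) of each fish (TMM-scaled cpm, log axes; blue control, red challenged; the grey line marks equal levels). All 30 fish lie above the line of equal levels for both genes.

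The telencephalon level of CAMKK1 lay near the limit of the libraries. It reached 1 cpm in 3 of 30 telencephalon libraries (fish 35, 38 and 9), and the gene entered the telencephalon tests through these libraries, since a gene was tested where at least 2 libraries of a region reached 1 cpm. Of these, fish 35 was rich in photoreceptor genes, and fish 38 and 9 held diencephalic sums of 1217 and 767 cpm. Without fish 9, 12, 13 and 38 the gene did not pass this filter, and its telencephalon tests could not be repeated. The lowest level, in the 60 min challenged fish 4, was a single count, whose exact 95% Poisson interval of 0.0253 to 5.57 counts corresponds to 0.00125 to 0.274 cpm and covers counting error only. CAMKK1 in diencephalon and NFATC3 in both regions reached 1 cpm in 30 of 30 libraries.

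Turning to the challenge, the clearest values of NFATC3 were those of the diencephalon at 60 min. The 5 control males had 7.70, 10.1, 11.5, 12.3 and 24.8 cpm (mean 13.3 ± 6.67, SD). The 5 challenged males had 7.07, 7.39, 7.42, 8.10 and 8.26 cpm (7.65 ± 0.507). All 5 challenged males were below the median control male, and 3 of 5 were below every control, but the groups overlapped through control fish 35 at 7.70 cpm. The level was 1.74-fold lower after the challenge (log2 fold change -0.80, SE 0.28).

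That difference did not pass the threshold for all genes. The unadjusted p of edgeR's quasi-likelihood test was 0.00922, rank 422 of 17448 genes tested, and the p adjusted over all 6 challenge comparisons was 0.622. A two-sided exact permutation test of the 5 against 5 fish gave p = 0.0238, where 0.00794 is the smallest it can give. In the same comparison 10.5% of all genes had an unadjusted p under 0.05. NFATC3 is in the study's own tables of challenge genes from these fish. Its p and rank are therefore not independent evidence, and that share is no measure for it. Over the 6 comparisons together 0% of the gene tests (0 of 104085) had an adjusted p under 0.1 in the quasi-likelihood test, against 6958 at an unadjusted p under 0.05, and DESeq2 called 256.

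Much of the distance came from the control male fish 3, whose 24.8 cpm was the highest NFATC3 level of all 60 libraries. Without fish 3 the level was 1.36-fold lower in challenged males (log2 fold change -0.45, edgeR unadjusted p = 0.0969, adjusted p = 0.758). Without fish 19 and 35, left out for their photoreceptor genes, the log2 fold change was -0.93 (edgeR unadjusted p = 0.00347, adjusted p = 0.663). Fish 35 was the control male through which the groups overlapped. The spread among challenged males stayed narrow, at 7.07 to 8.26 cpm. The diencephalon of fish 3 also had 98.8 cpm of summed skeletal muscle genes (4 genes, all with counts in every diencephalon library, with a median sum of 15.6 cpm over the region). The highest such sum, 204 cpm, was in fish 33, a 30 min control with the next highest control level of NFATC3. Fish 4, with 81.5 cpm of muscle genes, had the lowest NFATC3 level of the 60 min challenged males, 7.07 cpm. The part of these cells in the NFATC3 result was not tested.

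At 30 min NFATC3 in diencephalon overlapped widely between groups. Control males had 7.78, 9.70, 10.0, 11.8 and 18.2 cpm (11.5 ± 4.01) and challenged males 6.18, 7.05, 9.34, 11.2 and 13.0 cpm (9.36 ± 2.83). Only the control male at 18.2 cpm, fish 33, stood above all challenged males. The log2 fold change was -0.30 (SE 0.28, edgeR unadjusted p = 0.301, adjusted p = 0.919; exact permutation p = 0.341). It was -0.07 without fish 33. In this comparison 3.28% of genes had an unadjusted p under 0.05.

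At 120 min the means of NFATC3 in diencephalon were close. Control males had 8.55, 9.65, 11.0, 11.4 and 13.0 cpm (10.7 ± 1.70). Challenged males had 6.26, 7.34, 8.27, 10.2 and 18.5 cpm (10.1 ± 4.90). In the challenged group 3 fish were below every control, while fish 9, at 18.5 cpm, was above every control. The log2 fold change was -0.09 (SE 0.28, edgeR unadjusted p = 0.762, adjusted p = 0.989; exact permutation p = 0.563). Without fish 9, whose library was rich in microglia and leukocyte genes (1504 cpm) and had the lowest diencephalic sum of the region (51.7 cpm), it was -0.41 (unadjusted p = 0.135). Fish 8, with the highest sum of these genes (2190 cpm), had 11.5 cpm of NFATC3, the median of its group. Of all genes 5.93% had an unadjusted p under 0.05 here.

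**Figure D2:**
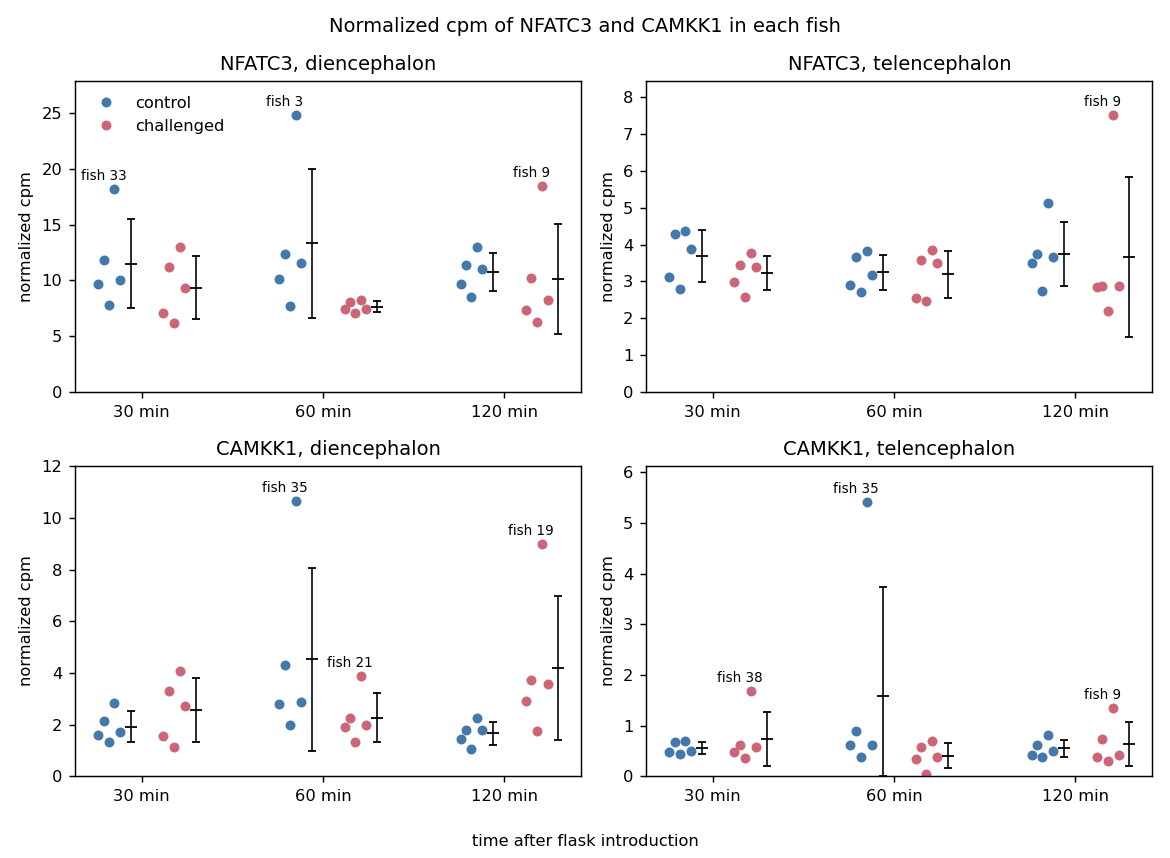
Level of NFATC3 and of CAMKK1 in each of the 60 libraries by region, time and treatment (TMM-scaled cpm; blue control, red challenged; black marks are the mean ± SD of 5 fish, with lower bars stopped at 0). Control and challenged fish overlap in all 12 pairs of groups, and single fish such as fish 3 for NFATC3 (24.8 cpm) and fish 35 for CAMKK1 (10.7 cpm) lie far above their groups.

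In telencephalon the NFATC3 levels of challenged and control males lay close together at 30 and 60 min. At 30 min control males had 2.80, 3.12, 3.88, 4.29 and 4.38 cpm and challenged males 2.58, 2.99, 3.38, 3.46 and 3.76 cpm (log2 fold change -0.19, SE 0.25). At 60 min control males had 2.71, 2.91, 3.17, 3.65 and 3.83 cpm and challenged males 2.46, 2.56, 3.49, 3.58 and 3.85 cpm (-0.04, SE 0.25). Neither passed the threshold in edgeR's quasi-likelihood test (adjusted p = 0.954 and 0.994), and the exact permutation p was 0.286 and 0.802. The share of genes with an unadjusted p under 0.05 was 4.14% at 30 min and 12.3% at 60 min.

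At 120 min NFATC3 in the telencephalon of 4 challenged males was low and in the remaining male very high. Challenged males had 2.20, 2.85, 2.87, 2.87 and 7.52 cpm (3.66 ± 2.17), and control males 2.73, 3.50, 3.66, 3.74 and 5.14 cpm (3.75 ± 0.873). The male at 7.52 cpm was fish 9 again, and its level was the highest of the 30 telencephalon libraries. The log2 fold change was -0.03 (SE 0.25, edgeR adjusted p = 0.996; exact permutation p = 0.635), and without fish 9 it was -0.48 (SE 0.19, unadjusted p = 0.0184, adjusted p = 0.617). The background share was 3.98%. Fish 9 held 1583 cpm of microglia and leukocyte genes in this library, and all 10 of those genes had counts in every library of the study. The same library held 767 cpm of diencephalic genes (median 30.9) and 402 cpm of telencephalic genes (median 589), and NFATC3 was a gene of higher level in diencephalon. Without fish 9, 12, 13 and 38 the log2 fold change was -0.50 (unadjusted p = 0.0241, adjusted p = 0.551). The part of either set of transcripts in the value was not tested.

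In telencephalon NFATC3 was compared with the microglia and leukocyte genes also in the other fish. Fish 8, with 1065 cpm of these genes in telencephalon, had 3.83 cpm of NFATC3, the highest of its group. Fish 10, with the highest sum of the remaining telencephalon libraries (508 cpm), had more NFATC3 than fish 8. Its level of 5.14 cpm was the next highest of the region after fish 9, and its diencephalic sum was 110 cpm. Over the 28 fish other than 8 and 9, the deviations of NFATC3 and of the summed marker level from their group means had a Pearson r of 0.47 (permutation p = 0.0111, adjusted over 4 such relations 0.0445) and a Spearman rho of 0.37 (adjusted p = 0.196). Without the 2 fish farthest from the median of the marker sum, fish 5 and 10, r was 0.35, and these fish also had raised diencephalic sums, 218 and 110 cpm. In diencephalon r was 0.08 over 28 fish (adjusted permutation p = 0.678). These relations were examined after the levels had been seen, and the part of these cells in the NFATC3 levels was not tested further.

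With all fish, CAMKK1 showed larger differences than NFATC3 and a different course in diencephalon. Without fish 19 and 35 the log2 fold change there at 60 min was smaller for CAMKK1 (-0.38) than for NFATC3 (-0.93). At 120 min control males had 1.07, 1.46, 1.78, 1.80 and 2.25 cpm of CAMKK1 (1.67 ± 0.441, SD). Challenged males had 1.74, 2.92, 3.57, 3.74 and 9.00 cpm (4.19 ± 2.80). In the challenged group 4 of 5 fish were above every control, and the remaining male, fish 1, lay at 1.74 cpm among them. The level was 2.50-fold higher after the challenge (log2 fold change 1.32, SE 0.44).

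The unadjusted p of this difference was 0.00599, rank 106 of 17448 genes, and the adjusted p was 0.571 in edgeR's quasi-likelihood test. The two-sided exact permutation test gave p = 0.0317. CAMKK1 too is in the study's tables of challenge genes from these fish, so its p and rank are not independent evidence. The highest of the challenged males, fish 19 at 9.00 cpm, was the library with 1324 cpm of photoreceptor genes. Without fish 19 the level was 1.78-fold higher (log2 fold change 0.83, unadjusted p = 0.0594), and the 3 males at 2.92, 3.57 and 3.74 cpm were still above every control. The highest of these 3, fish 9, had the lowest photoreceptor sum of its group, 7.53 cpm (median 14.6), but its library held 1504 cpm of microglia and leukocyte genes and only 51.7 cpm of diencephalic genes. Without fish 9, 12, 13 and 38 the log2 fold change was 1.44 (unadjusted p = 0.0116, adjusted p = 0.497). That fit kept fish 19, at 9.00 cpm, beside fish 1 and 29, at 1.74 and 2.92 cpm, as the challenged males. A fit that also left out fish 19 was not run.

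At 60 min the order of CAMKK1 in diencephalon was the other way round. Control males had 1.98, 2.81, 2.87, 4.32 and 10.7 cpm (4.53 ± 3.53) and challenged males 1.34, 1.92, 1.98, 2.27 and 3.90 cpm (2.28 ± 0.964). The level was 1.96-fold lower after the challenge (log2 fold change -0.97, SE 0.43, edgeR unadjusted p = 0.0334, adjusted p = 0.714; exact permutation p = 0.127). Fish 35, the control male at 10.7 cpm, was the library with 2426 cpm of photoreceptor genes. Without fish 35 the log2 fold change was -0.38 (1.30-fold lower, unadjusted p = 0.353). Fish 15, the control male at 4.32 cpm, had 135 cpm of photoreceptor genes, the highest sum in the region after fish 35 and 19.

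At 30 min CAMKK1 in diencephalon was 1.32, 1.61, 1.70, 2.14 and 2.85 cpm in control males. In challenged males it was 1.14, 1.55, 2.73, 3.32 and 4.10 cpm, so that the challenged males reached both below and above all controls. The log2 fold change was 0.42 (SE 0.43, edgeR adjusted p = 0.930; exact permutation p = 0.429).

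The challenge effect on CAMKK1 in diencephalon was thus estimated at 0.42, -0.97 and 1.32 on the log2 scale at 30, 60 and 120 min (SE 0.43 to 0.44). A test of whether the effect differed between times gave F = 6.97 on 2 degrees of freedom, with an unadjusted p of 0.00368 and an adjusted p of 0.369 in edgeR's quasi-likelihood test. A likelihood ratio test with tagwise dispersions, the kind of test closest to the study's own, gave an adjusted p of 0.0809 for the same term, the lowest of 5 alternatives, whose adjusted p reached 0.554. The study had already reported from the same fish that CAMKK1 changed over time in response to the challenge. The value of 0.0809 therefore repeats that call and is not independent evidence. Without fish 19 and 35 the 3 effects were 0.42, -0.38 and 0.83. The unadjusted quasi-likelihood p for a difference between them was then 0.0606. With all fish, the joint test of the 3 effects gave an unadjusted p of 0.00728 and an adjusted p of 0.489. For NFATC3 in diencephalon the joint p was 0.0468 unadjusted and 0.718 adjusted, and the p for a difference between times was 0.208 unadjusted.

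**Figure D3:**
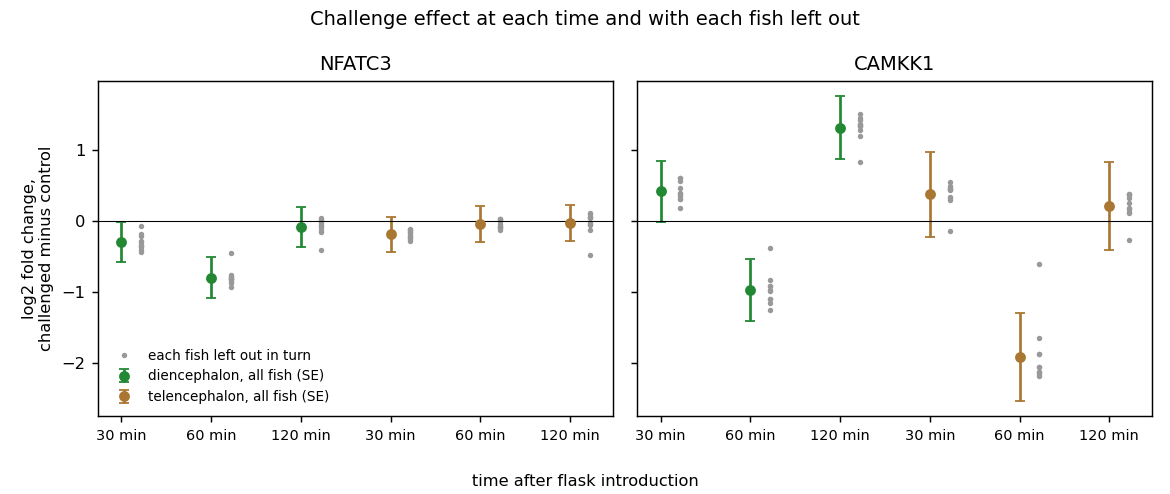
Log2 fold change of challenged against control males for NFATC3 and CAMKK1 at 30, 60 and 120 min (green diencephalon, brown telencephalon; bars are ± SE of the edgeR fit; grey points are the values after removal of a single fish). The CAMKK1 effect in diencephalon is -0.97 at 60 min and 1.32 at 120 min, and the grey points show how far single fish move it.

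In telencephalon CAMKK1 differed most at 60 min, and there the value rested largely on 1 fish. Control males had 0.387, 0.627, 0.629, 0.892 and 5.41 cpm and challenged males 0.0493, 0.347, 0.384, 0.573 and 0.698 cpm. The groups overlapped, and the male at 5.41 cpm was fish 35, whose telencephalon also held 1122 cpm of photoreceptor genes. The level was 3.79-fold lower in challenged males (log2 fold change -1.92, SE 0.62, edgeR unadjusted p = 0.00463, adjusted p = 0.563; exact permutation p = 0.111). Without fish 35 it was 1.52-fold lower (-0.61, unadjusted p = 0.244). Without the challenged fish 4, with its single count, the log2 fold change was -1.66.

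CAMKK1 in telencephalon at 30 and 120 min was low in nearly all fish. At 30 min control males had 0.443, 0.487, 0.510, 0.672 and 0.708 cpm and challenged males 0.371, 0.474, 0.580, 0.612 and 1.68 cpm (log2 fold change 0.38, SE 0.60, edgeR adjusted p = 0.969; exact permutation p = 0.754). At 120 min control males had 0.388, 0.430, 0.512, 0.615 and 0.814 cpm and challenged males 0.309, 0.378, 0.414, 0.732 and 1.35 cpm (0.21, SE 0.62, adjusted p = 0.987; exact permutation p = 0.929). In each case the highest level was that of a single challenged male, fish 38 at 30 min and fish 9 at 120 min. Without these fish both values turned negative, to -0.15 and -0.27. Both libraries stood apart in region markers, with 1217 cpm of diencephalic genes in fish 38 and 767 in fish 9 (median 30.9) and 264 and 402 cpm of telencephalic genes (median 589), and CAMKK1 was 3.90-fold higher in diencephalon over all fish. Fish 9 also held 1583 cpm of microglia and leukocyte genes. The part of these transcripts in the CAMKK1 levels was not tested. The photoreceptor sums of the telencephalon libraries of these groups did not exceed 31.0 cpm in challenged males at 30 min or 16.6 cpm in challenged males at 120 min.

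Because the photoreceptor genes and CAMKK1 shared their highest libraries, the relation was examined with those libraries left out. In diencephalon, over the 28 fish other than 19 and 35, the deviations of CAMKK1 and of the photoreceptor sum from their group means had a Pearson r of 0.18 and a Spearman rho of 0.11 (adjusted permutation p = 0.491 and 0.746). In telencephalon, over the 29 fish other than 35, r was 0.30 and rho 0.28 (adjusted permutation p = 0.221 and 0.278). Outside the separate libraries no relation passed the test. In those separate libraries CAMKK1 was highest in the region, and the part of photoreceptor cells in these levels was not tested. Between 11 and 17 of the 18 photoreceptor genes had counts in every library of a group, and none was at 0 in a whole group.

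**Figure D4:**
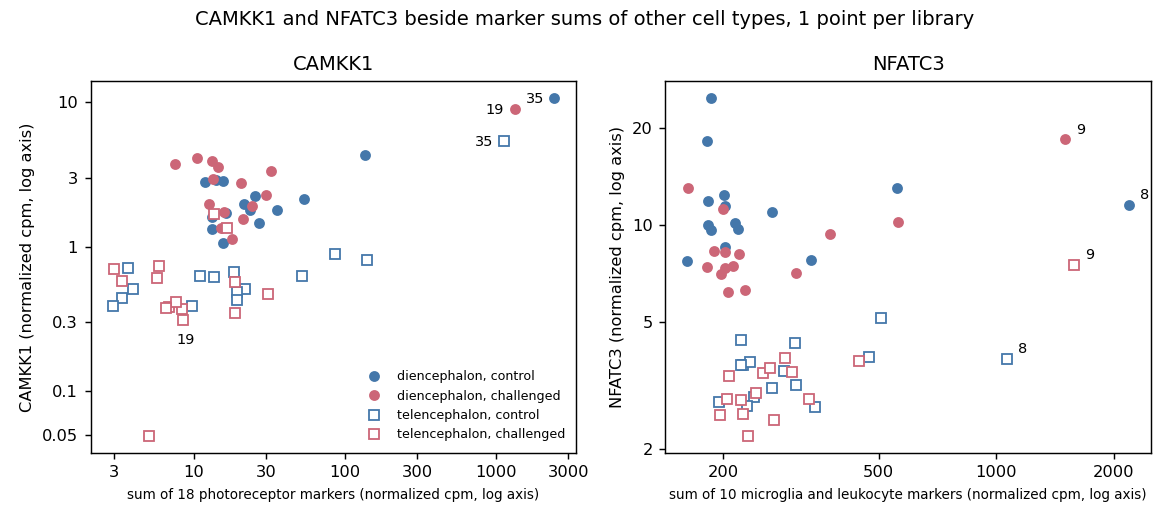
CAMKK1 level against the summed photoreceptor genes, and NFATC3 level against the summed microglia and leukocyte genes, in each library (cpm, log axes; filled circles diencephalon, open squares telencephalon; blue control, red challenged). Fish 35 and fish 19 in diencephalon and fish 35 in telencephalon stand apart on both axes of the CAMKK1 panel, and fish 9 in telencephalon on those of the NFATC3 panel.

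Ordered by their means, the NFATC3 levels in diencephalon ran from 13.3 cpm in the 60 min controls through 11.5 (30 min control), 10.7 (120 min control), 10.1 (120 min challenged) and 9.36 (30 min challenged) to 7.65 cpm in the 60 min challenged males, with all 3 control groups above all 3 challenged groups. In telencephalon the NFATC3 means lay between 3.75 ± 0.873 cpm (120 min control) and 3.19 ± 0.634 cpm (60 min challenged), with SDs of 0.456 to 2.17 cpm. The CAMKK1 means in diencephalon ran from 4.53 cpm (60 min control) through 4.19 (120 min challenged), 2.57 (30 min challenged), 2.28 (60 min challenged) and 1.92 (30 min control) to 1.67 cpm (120 min control), an order that did not follow treatment. In telencephalon they ran from 1.59 ± 2.14 cpm (60 min control) to 0.410 ± 0.247 cpm (60 min challenged). Neighbouring groups in each of these orders overlapped.

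The levels over time within 1 treatment were compared in the same fits. NFATC3 had small differences, all 12 in the range of -0.32 to 0.40 on the log2 scale and adjusted p of 0.858 or more (edgeR). In control diencephalon CAMKK1 was 2.35-fold higher at 60 than at 30 min (log2 difference 1.23, SE 0.44, unadjusted p = 0.00917, adjusted p = 0.670) and 2.69-fold lower at 120 than at 60 min (-1.43, SE 0.44, unadjusted p = 0.00326, adjusted p = 0.654). The CAMKK1 effect at 60 min was thus taken against controls whose mean was higher than that of the controls at other times. Without fish 19 and 35 these differences were 0.64 and -0.83. In control telencephalon the matching differences were 1.49 and -1.52 (adjusted p = 0.695 for both), and 0.18 and -0.20 without those fish. In challenged diencephalon CAMKK1 was 0.87 higher on the log2 scale at 120 than at 60 min (edgeR unadjusted p = 0.0567). Without fish 19 and 35 that difference was 0.38 (unadjusted p = 0.288).

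The size of the challenge effect was also compared between regions. For NFATC3 the effect at 60 min was more negative in diencephalon by 0.77 (SE 0.38, edgeR unadjusted p = 0.0496, adjusted p = 1.0). For CAMKK1 the effect at 120 min was more positive in diencephalon by 1.11 (unadjusted p = 0.150), and at 60 min by 0.93 (unadjusted p = 0.215). These values fell to 0.45 (edgeR unadjusted p = 0.449) and 0.23 (unadjusted p = 0.699) without fish 19 and 35. Removal of single fish moved the 120 min value between 0.46 and 1.62. Fish 19 (120 min challenged) had 9.00 cpm of CAMKK1 in diencephalon and 0.309 cpm in telencephalon, and its diencephalon held 1324 cpm of photoreceptor genes. None of the 6 differences passed the threshold, and none of the 17536 genes did at any time (225 to 582 genes had an unadjusted p under 0.05). With the fish as a block the NFATC3 difference at 60 min was -0.65 (unadjusted p = 0.0112, adjusted p = 0.817) and the CAMKK1 difference at 120 min 1.03 (unadjusted p = 0.0381, adjusted p = 0.933). Without fish 9, 12, 13 and 38 the CAMKK1 difference at 120 min was 2.02 (unadjusted p = 0.0278, adjusted p = 1.0). The challenged males left at 120 min in that fit were fish 1, 19 and 29, so it still held fish 19.

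A fish that was high in a gene in one region tended to be high in the other. After group means were removed, the CAMKK1 levels of a fish in its diencephalon and telencephalon had a Pearson r of 0.61 (adjusted permutation p = 0.0018, n = 30) and a Spearman rho of 0.61. Without the fish farthest from the median, fish 19 and 35, r was 0.65. For NFATC3 r was 0.58 (adjusted permutation p = 0.0020) and rho 0.45, and without fish 3 and 9 r was 0.40 (adjusted permutation p = 0.066), so that relation rested in part on these males. Without fish 9, 12, 13 and 38 r was 0.34 for NFATC3 (adjusted permutation p = 0.182) and 0.65 for CAMKK1. Between the genes, r was -0.24 in diencephalon (adjusted permutation p = 0.207) and 0.29 in telencephalon (adjusted permutation p = 0.152). Without the farthest fish, 9 and 19, the telencephalon r was 0.08. Left out for their photoreceptor genes, fish 19 and 35 gave a telencephalon r of 0.41 (adjusted permutation p = 0.0455).

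Both genes varied more between fish of 1 group than most genes of like level in diencephalon. The SD of log2 cpm within groups was 0.45 for NFATC3, and 88.2% of the 2330 genes within 0.5 of its log2 level had a smaller one (median 0.20). For CAMKK1 it was 0.67, larger than that of 80.7% of 1192 genes (median 0.39). In telencephalon their spread was ordinary. NFATC3 had an SD of 0.37, larger than that of 43.9% of 1337 genes, and CAMKK1 0.87, larger than that of 46.1% of 471 genes.

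The genes most like each member were sought by the Pearson r of log2 cpm over the 30 libraries of a region, which share depth, region and any difference in cell make-up. In diencephalon NFATC3 was most like plxna1, a plexin receptor for semaphorins (r = 0.94), ust, a sulfotransferase that modifies chondroitin and dermatan sulfate (0.93), ENSGACG00000015194 (0.92), ptprfa, a receptor tyrosine phosphatase (0.92), and ENSGACG00000009650 (0.92). These values were 0.87 to 0.91 without fish 3 and 9, and the highest libraries moved them little. plxna1 had 148 cpm in fish 3 against a median of 67.4, and ptprfa 177 against 68.7. In telencephalon the nearest were ENSGACG00000009854 (0.87), ENSGACG00000000503 (0.85), fli1b, an ETS transcription factor of endothelial cells in zebrafish (0.84), ef1 (0.84) and ENSGACG00000005777 (0.82). These were 0.64 to 0.71 without fish 9 and 10. Of the 10 microglia and leukocyte genes, 2 were among the 100 genes most like NFATC3 in telencephalon, and 0 without fish 8 and 9. Of the 4 skeletal muscle genes, 1 was among the 100 most like NFATC3 in diencephalon, of 17447 genes compared. It stayed there without fish 19 and 35 or without fish 8 and 9. Neither set holds fish 3 or 33, which had the highest muscle sums, so these fits do not check that likeness.

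CAMKK1 in diencephalon was most like genes that shared its highest libraries. They were abca4b, a retinoid transporter of photoreceptors (r = 0.78), ENSGACG00000015495 (0.78), WASF3 (2 of 2), a regulator of actin assembly (0.77), slc2a1a, a glucose transporter (0.76), and PPEF2 (2 of 2), a calcium-binding phosphatase of mammalian photoreceptors (0.75). Without fish 19 and 35 these values were 0.37 to 0.48. abca4b had 103 cpm in fish 35 and 50.0 cpm in fish 19, against a median of 9.61. Of the 18 photoreceptor genes, 7 were among the 100 genes most like CAMKK1 in diencephalon and 3 in telencephalon, and 0 in either region without fish 19 and 35. Of the 6 diencephalic genes tested in telencephalon, 0 were among the 100 most like CAMKK1 there, and 3 without fish 19 and 35. In telencephalon the nearest were glmnb (0.85), ENSGACG00000003357 (0.80), ENSGACG00000015823 (0.79), impg1b, a proteoglycan of the matrix around photoreceptors (0.78), and si:dkey-283b15.2 (0.76). These were 0.57 to 0.73 without fish 35 and 38.

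A gene near each member on its linkage group was examined as well, and whether other genes lie between was not examined. Both of these neighbours are in the study's own tables of challenge genes, so their values are not independent evidence. Near NFATC3 lies esrp2, an RNA-binding splicing regulator of epithelial cells, at 14972131 to 14987084 of linkage group II. Its log2 fold change in telencephalon was -3.99 at 30 min (unadjusted p = 0.00121, adjusted p = 0.534) and 2.49 at 60 min (adjusted p = 0.700, edgeR), while NFATC3 there had -0.19 and -0.04. The esrp2 levels were low and uneven. At 30 min control males had 2.81 ± 4.49 cpm (mean ± SD) and challenged males 0.175 ± 0.0824 cpm. Near CAMKK1 lies C2CD3, a gene of the centriole and cilium, at 12379163 to 12390950 of linkage group I. C2CD3 had -0.28 in diencephalon at 120 min (unadjusted p = 0.00137, adjusted p = 0.534), where CAMKK1 had 1.32. At the times named, each member and its neighbour had different values, and no neighbour passed the threshold.

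The members stand within a larger calcium pathway, which was described with 5 lists of named genes. The list of calcium entry and release (12 genes) holds only genes from the study's own tables of challenge genes. So do those of pumps, exchangers and mitochondrial uptake (9 genes) and of calcium and lipid signal enzymes (14 genes). Those tables come from the same fish, so a high share of low p values was built into these lists. Their counts, medians and directions are not independent evidence. Both members are in those tables too. The list of calcium-responsive transcription factors (12 genes) holds 0 such genes and that of activity-induced transcription factors (14 genes) holds 2. The 0 depends on how the lists were drawn up. The gene camta1a, by its name a relative of the listed factor CAMTA1, is in the study's tables and was placed among the signal enzymes. No gene of any list passed an adjusted p of 0.1 in any of the 6 comparisons.

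Calcium entry and release, that is voltage-gated channels, NMDA receptor subunits and the ryanodine receptor, had its highest values in telencephalon at 60 min. Of its 12 genes 8 were higher in challenged males at an unadjusted p under 0.05 and 0 lower, with a median log2 fold change of 0.32 against -0.02 for all genes. In diencephalon at 60 min 4 were higher and 1 lower (median 0.16). The T-type calcium channel gene cacna1g had the smallest p of the list (0.51 at 30 min in diencephalon, unadjusted p = 0.000636, adjusted p = 0.534). The NMDA receptor subunit gene grin1a had 0.20 at 60 min in diencephalon (unadjusted p = 0.00284). Over the same comparison the background share with an unadjusted p under 0.05 was 12.3% in telencephalon and 10.5% in diencephalon, as above. That share is no measure for this list or for those of pumps and signal enzymes. Their genes were chosen from those the study had called. CAMKK1, downstream of such channels in the pathway, had -1.92 in telencephalon at 60 min, and -0.61 without fish 35 (edgeR unadjusted p = 0.244). Its levels there lay near the limit of the libraries, and the list was chosen from called genes. The sign of CAMKK1 therefore cannot be set against that of the list.

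Pumps, exchangers and mitochondrial uptake, which remove calcium from the cytoplasm, had 5 genes higher and 2 lower of 9 in telencephalon at 60 min at the unadjusted threshold, which 12.3% of all genes passed (median 0.29). The sodium-calcium exchanger gene slc8a4b was 0.38 higher in diencephalon at 60 min (SE 0.07, unadjusted p = 2.56e-05), and its adjusted p of 0.443 was the smallest of all genes and comparisons. The mitochondrial calcium uniporter gene mcu had 0.40 in telencephalon at 60 min (adjusted p = 0.602). The plasma membrane calcium pump gene atp2b1b had -3.23 there (adjusted p = 0.534), and this gene shared the high libraries of CAMKK1. It had 20.0 cpm in the diencephalon of fish 35 and 10.5 cpm in that of fish 19, against 0.133 to 1.48 cpm in the other 28 fish. In telencephalon atp2b1b had 9.20 cpm in fish 35 against at most 1.06 cpm in the others.

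Calcium and lipid signal enzymes, among them calmodulin-dependent kinases, phospholipases and protein kinases C, had 7 genes higher and 0 lower of 14 in telencephalon at 60 min at the unadjusted threshold, against 12.3% of all genes (median 0.25). In diencephalon at 60 min 2 were higher and 4 lower, against 10.5% of all genes (median -0.12). PLCH2 (1 of 2), a phospholipase C gene, had the smallest p of the list, with -1.69 in diencephalon at 60 min (unadjusted p = 0.00256, adjusted p = 0.547). RASGRP1, a calcium- and diacylglycerol-regulated activator of Ras, had 0.40 in the same comparison (adjusted p = 0.564), and crebbpa, which encodes a CREB-binding coactivator, had 0.24 in telencephalon at 60 min (adjusted p = 0.570). At 120 min in telencephalon all 14 genes had positive values (median 0.16), with 0 at an unadjusted p under 0.05.

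The transcription factors that calcium signals act on were listed apart. Of the 12 calcium-responsive factors, 2 were higher and 0 lower at the unadjusted threshold in telencephalon at 60 min, mef2b (0.31) and CAMTA1 (0.30), a share near the 12.3% of all genes. CREB1, at the end of the CaMKK and CaMKIV route in mammals, had -0.12 in diencephalon at 120 min (unadjusted p = 0.0575, adjusted p = 0.764), the comparison in which CAMKK1 had 1.32. Of the 14 activity-induced factors, whose genes are switched on within minutes in active neurons, 4 were higher and 0 lower in telencephalon at 30 min, where 4.14% of all genes passed (median 0.14). They included EGR4 (2 of 2), at 0.43 (unadjusted p = 0.00099, adjusted p = 0.534), and nr4a1, at 0.65 (adjusted p = 0.687). Of these, EGR4 (2 of 2) is in the study's own table for this comparison. In that comparison NFATC3 had -0.19 (SE 0.25). CAMKK1 had 0.38 (SE 0.60), and -0.15 without fish 38. Of the 14 activity-induced factors 0 passed the unadjusted threshold in telencephalon at 60 min and 0 at 120 min, against 12.3% and 3.98% of all genes. In diencephalon 1, 2 and 2 of them were higher and 0 lower at 30, 60 and 120 min, against 3.28%, 10.5% and 5.93% of all genes.

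**Figure D5:**
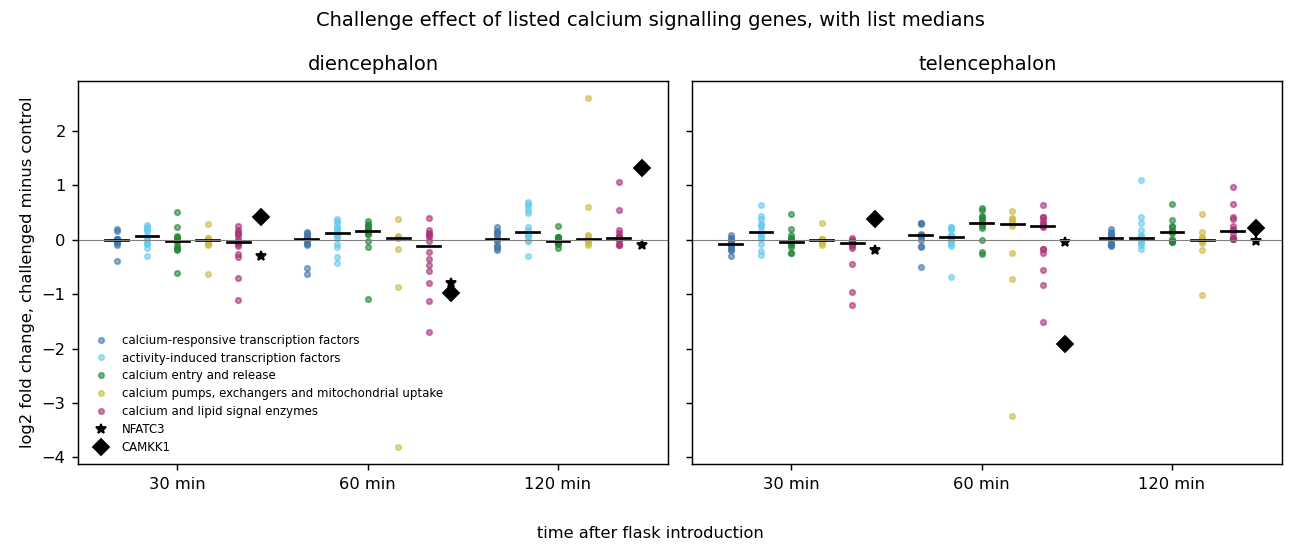
Log2 fold change of challenged against control males for the genes of the 5 calcium-related lists in each region and time (dots are genes, black bars the list medians), with NFATC3 as a star and CAMKK1 as a diamond. In telencephalon at 60 min the median of calcium entry and release is 0.32, while CAMKK1 is at -1.92 (-0.61 without fish 35). That list holds only genes that the study had called for the challenge, and CAMKK1 lay near the limit of the libraries in telencephalon.

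The regional order of the lists was set beside that of all genes, of which 37.8% were called higher in telencephalon and 35.1% in diencephalon. Of the 14 activity-induced factors 12 were higher in telencephalon and 2 in diencephalon at an adjusted p under 0.1 (edgeR, median log2 difference of diencephalon against telencephalon -1.04), and of the 12 calcium-responsive factors 8 were higher in telencephalon and 4 in diencephalon. Calcium entry and release was divided, with 6 genes higher in diencephalon and 5 in telencephalon. Pumps, exchangers and uptake had 3 and 2 of 9, and signal enzymes 5 and 6 of 14. The median over all genes was -0.01. NFATC3 at 1.57 and CAMKK1 at 1.96 lay on the diencephalic side. The listed genes with larger values than NFATC3 were grin2ca (2.94), PLCH2 (1 of 2) (2.77), creb5b (2.17), creb5a (2.09) and tesca (1.69). Of these, creb5a and creb5b encode CREB-family factors. All were named here after their values had been seen.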

How the data were processed

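The authors sequenced poly-A RNA as single-end directional reads, and per the labels and methods used CASAVA 1.8.2, TopHat2 2.0.8 and HTSeq 0.6.1, leaving out reads in several genes; the methods name Ensembl's stickleback assembly with repeats masked as the alignment target, while the build label in the processing notes names a mouse build. The deposited file used here holds raw counts per gene, and a deposited cpm file was not used. Tested genes reached 1 cpm in 2 or more libraries of the region (17448 in diencephalon, 17247 in telencephalon) with edgeR 4.0.16 (R 4.3.3): TMM scaling, treatment within time, quasi-likelihood tests, Benjamini-Hochberg adjustment over the 6 comparisons, threshold 0.1. The quasi-likelihood test replaced the authors' generalized linear model test. Regions were fitted together over 12 groups. Permutation tests used log2 cpm with a prior count of 2. Replicates are separate fish, and all 120 pairs of replicate libraries differed beyond counting noise (chi-square per gene 13.1 to 121). The fish numbers in the labels pair the regions of a fish (r = 0.58 for NFATC3, 0.61 for CAMKK1); the pairing of control with challenged males is not in the labels and was not used. Named genes were the members, at most 4 genes of each list with the smallest p, the neighbours and the 5 genes most alike. Members and lists were chosen with earlier results of these data known. Alternatives were DESeq2 1.42.0, a likelihood ratio test, other scalings and filters, each fish left out, and, chosen after seeing the data, leaving out fish 19 and 35, 8 and 9, or 9, 12, 13 and 38, and a term for the first library index. Pictures were drawn with matplotlib 3.10.9.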

Additional observations from a re-analysis of the deposited data

Results flagged for a closer look

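In 6 of the 24 groups of 5 libraries the highest fish stood apart. Its gap to the next fish was more than 0.71 of the whole range. Groups drawn from a normal distribution exceed this value in about 1 in 20 cases. The gaps were taken on cpm and not on the log2 scale, where high values lie closer together. That rate therefore need not hold here, and the count of 6 is a description only. For NFATC3 in diencephalon the 60 min control fish 3 had 24.8 cpm, against 7.70 to 12.3 cpm in the others. For NFATC3 in telencephalon the 120 min challenged fish 9 had 7.52 cpm, against 2.20 to 2.87 cpm. For CAMKK1 in diencephalon the 60 min control fish 35 had 10.7 cpm, against 1.98 to 4.32 cpm, and the 120 min challenged fish 19 had 9.00 cpm, against 1.74 to 3.74 cpm. For CAMKK1 in telencephalon the 30 min challenged fish 38 had 1.68 cpm, against 0.371 to 0.612 cpm, and the 60 min control fish 35 had 5.41 cpm, against 0.387 to 0.892 cpm. In 3 of the 6 the library was fish 19 or 35, with the photoreceptor genes, and in 1 it was fish 9, with 1583 cpm of microglia and leukocyte genes and 767 cpm of diencephalic genes in its telencephalon. Of the remaining 2, the telencephalon of fish 38 held the highest diencephalic sum of the region, 1217 cpm against a median of 30.9, and the diencephalon of fish 3 held 98.8 cpm of skeletal muscle genes. The part of those cells or tissue in the values was not tested.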

How the results depend on the processing

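The region difference of both genes kept its direction and passed the threshold under every alternative run (log2 1.52 to 1.73 for NFATC3, 1.62 to 2.21 for CAMKK1, each fish left out included); a replicate block for the fish gave 1.56 and 2.03. No challenge comparison of a member passed an adjusted p of 0.1 under any alternative run. The likelihood ratio test gave an adjusted p of 0.0809 for the time by treatment interaction of CAMKK1 in diencephalon, a gene the study had already called from these fish. It called 190 genes in the challenge comparisons (DESeq2 256), 174 in diencephalon and 148 in telencephalon in the joint test, 186 and 117 for the interaction, and 150 between times; the quasi-likelihood test called 0, 0, 0, 0, 0 and 1, with 6958, 1195, 1246, 1362, 1601 and 13836 at an unadjusted p under 0.05. The replicate block called 2 genes for a region by treatment interaction, and leaving out fish 8 and 9 called 6 for the interaction in diencephalon; the causes were not tested. Without fish 8 and 9 the log2 fold change of CAMKK1 in telencephalon at 120 min was -0.27, that of NFATC3 there at 60 min 0.028, and the NFATC3 differences in challenged males were -0.22 for 120 against 30 min in diencephalon, -0.26 for 120 against 30 min and -0.23 for 120 against 60 min in telencephalon. Without fish 19 and 35 NFATC3 in telencephalon at 120 min was 0.10, and r between the members there was 0.41. Without fish 9, 12, 13 and 38 the NFATC3 differences between times were -0.29 (diencephalon, challenged, 120 against 30 min), -0.36 and -0.26 (telencephalon, challenged, 120 against 30 and 60 min) and -0.030 (telencephalon, control, 120 against 30 min), its region differences of the effect 0.0023 at 30 min and 0.13 at 120 min, its r between regions 0.34, and 0 genes were called between times. With the library index as a term (8 groups of 2 to 4 fish, too few to recompute within them) CAMKK1 in telencephalon at 30 min was -0.14.

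With each fish left out in turn, some values that passed no test changed sign. For CAMKK1 the challenge effect in telencephalon ran from -0.15 to 0.55 at 30 min and from -0.27 to 0.39 at 120 min, and the region difference of the effect at 30 min from -0.27 to 0.45. The CAMKK1 differences between times ran from -0.44 to 0.077 (diencephalon, challenged, 60 against 30 min), from -0.66 to 0.33 (telencephalon, challenged, 120 against 30 min) and from -0.20 to 0.075 (telencephalon, control, 120 against 30 min). For NFATC3 the challenge effect ran from -0.41 to 0.046 in diencephalon at 120 min, and in telencephalon from -0.13 to 0.034 at 60 min and from -0.48 to 0.11 at 120 min, with the region difference of the effect from -0.24 to 0.047 at 30 min and from -0.14 to 0.067 at 120 min. The NFATC3 differences between times in diencephalon ran from -0.22 to 0.25 (challenged, 120 against 30 min), from -0.21 to 0.12 (control, 120 against 30 min), from -0.45 to 0.036 (control, 120 against 60 min) and from -0.14 to 0.43 (control, 60 against 30 min). In telencephalon they ran from -0.26 to 0.32 (challenged, 120 against 30 min), from -0.23 to 0.35 (challenged, 120 against 60 min), from -0.11 to 0.051 (challenged, 60 against 30 min) and from -0.12 to 0.12 (control, 120 against 30 min). The number of genes called between times was 1 to 2, and for the interaction in diencephalon 0 to 1. CAMKK1 in telencephalon did not pass the filter of 25 libraries, without fish 9, 12, 13 and 38, or in a fit of the 10 libraries of a time alone, so those have no value, and a library index from the file headers was not run because the headers give none. In telencephalon the depth limits CAMKK1, whose 1 count in fish 4 allows 0.00125 to 0.274 cpm.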
